A study of Mus musculus with 8 samples.

Results

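The genes described are 45 genes of glycolysis and of the response to low oxygen, out of 18533 gene symbols counted in mouse aortic smooth muscle cells (MASMCs). They are 4 transporters of glucose and lactate, 17 glycolytic enzymes, 3 regulators of glycolytic flux, 7 genes of the hypoxia-inducible factor (HIF) system, and 14 other genes known as HIF targets. The genes were chosen by function with results of the same samples already known, and Ndufa4l2 was selected on its raised level in Hint1-/- MASMCs. Differences between the genotypes in these 45 genes are therefore given as a description. Their p-values are not printed, and calls at an adjusted p threshold serve only to sort the genes.

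Hint1-/- MASMCs (n = 4) were compared with WT MASMCs (n = 4), and both were treated with PDGF-BB, a growth factor that drives smooth muscle cells away from the contractile state, at 20 ng/ml for 24 hours. No sample without PDGF-BB was analysed here, so the values describe treated cells only. MASMCs are primary cells digested with collagenase from aortas of male mice aged 4 to 6 weeks, after the adventitia and endothelium were taken off. The study methods name both the thoracic and the whole aorta as the source. The Hint1-/- mice carried the deletion in every cell type, not in smooth muscle alone. The labels do not say whether the replicates came from separate mice or cultures, so the spread between replicates may be technical.

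Glycolysis splits glucose into pyruvate, much of which growing smooth muscle cells turn into lactate and export. HIF is a transcription factor made of an alpha subunit, encoded by Hif1a or Epas1, and the partner encoded by Arnt. Where oxygen is present, the prolyl hydroxylases encoded by Egln1, Egln2, and Egln3 mark the alpha subunits, and the product of Vhl then directs their breakdown. Where oxygen is low, the alpha subunits accumulate as protein and raise the transcription of glucose transporters, glycolytic enzymes, and genes that lower mitochondrial oxygen use. HIF activity is set largely at the protein level, which RNA counts do not measure.

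Each sample held 20778077 to 20888041 estimated counts. The targeted gene Hint1 had 2272, 2336, 2364, and 2301 estimated counts in WT replicates 1, 2, 3, and 4 and 713, 748, 778, and 715 in Hint1-/- replicates 1, 2, 3, and 4, so every Hint1-/- sample was below every WT sample. The summed level of 9 smooth muscle markers ranged from 1360 to 1478 CPM (counts scaled by library size) in WT and from 1123 to 1213 CPM in Hint1-/- MASMCs, with 6 of the 8 tested lower and 1 higher. Of these markers, Acta2 had mean levels of 826 and 578 CPM in WT and Hint1-/- MASMCs, Tagln 403 and 374 CPM, and Cnn1 15.1 and 6.93 CPM. Myh11, at 20.4 and 6.98 CPM, had the lowest log2 fold change of the tested smooth muscle markers, -1.54. Myocd had 7 to 14 counts and was below the filter. Macrophage markers were abundant, at 2447 to 2815 CPM in WT and 2020 to 2160 CPM in Hint1-/- MASMCs, with 6 of 7 lower. Schwann cell markers summed to 43.7 to 49.9 CPM in WT and to 9.52 to 12.5 CPM in Hint1-/- MASMCs, with 6 of 7 lower. Fibroblast markers summed to 5294 to 5769 CPM in WT and to 5693 to 6093 CPM in Hint1-/- MASMCs, with 3 higher and 3 lower of 7. Cardiac muscle markers were scarce, at 1.63 to 2.44 CPM in WT and 5.39 to 9.18 CPM in Hint1-/- MASMCs, with 3 of 4 tested higher. Endothelial markers lay between 5.19 and 7.98 CPM over all 8 samples, and no counted gene of these marker lists was at 0 in all 8 samples. The adipocyte list summed to 47.8 to 58.0 CPM, nearly all of it Fabp4, which macrophages also express, with mean levels of 50.3 CPM in WT and 54.6 CPM in Hint1-/- MASMCs, and its other 4 counted markers had 0 to 4 counts per sample. In bulk samples, fewer cells of a type and less RNA per cell cannot be told apart, and the part of these mixtures in the values below was not tested.

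All 45 genes passed the filter on low counts. In Hint1-/- MASMCs, 33 of them were higher and 0 lower at an adjusted p under 0.05 by edgeR's quasi-likelihood test, and the other 12 did not pass it. At an unadjusted p under 0.05, 1 gene, Slc2a3, was lower, and DESeq2 and limma-voom each called 0 lower. Among all 13535 genes tested, 11.2% were higher and 10.2% were lower by that rule. With a fold change over 1.5 also required, 9 of the 45 genes were higher, against 1.34% of all genes. In 33 of the 45 genes all Hint1-/- samples exceeded all WT samples, against 11.9% of all genes, while in 1, Slc2a3, every Hint1-/- sample lay below, and in 11 the genotypes overlapped. The log2 fold changes of Hint1-/- over WT ran from -0.20 to 1.49 with a median of 0.29 over the 45 genes, beside a median of 0.00031 over all genes tested. Since the list was drawn up with these values known, the counts describe it and are not a test of it. By role, 3 of 4 transporters, 12 of 17 glycolytic enzymes, 2 of 3 flux regulators, 5 of 7 genes of the HIF system, and 11 of 14 other HIF targets were higher.

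**Figure D1:**
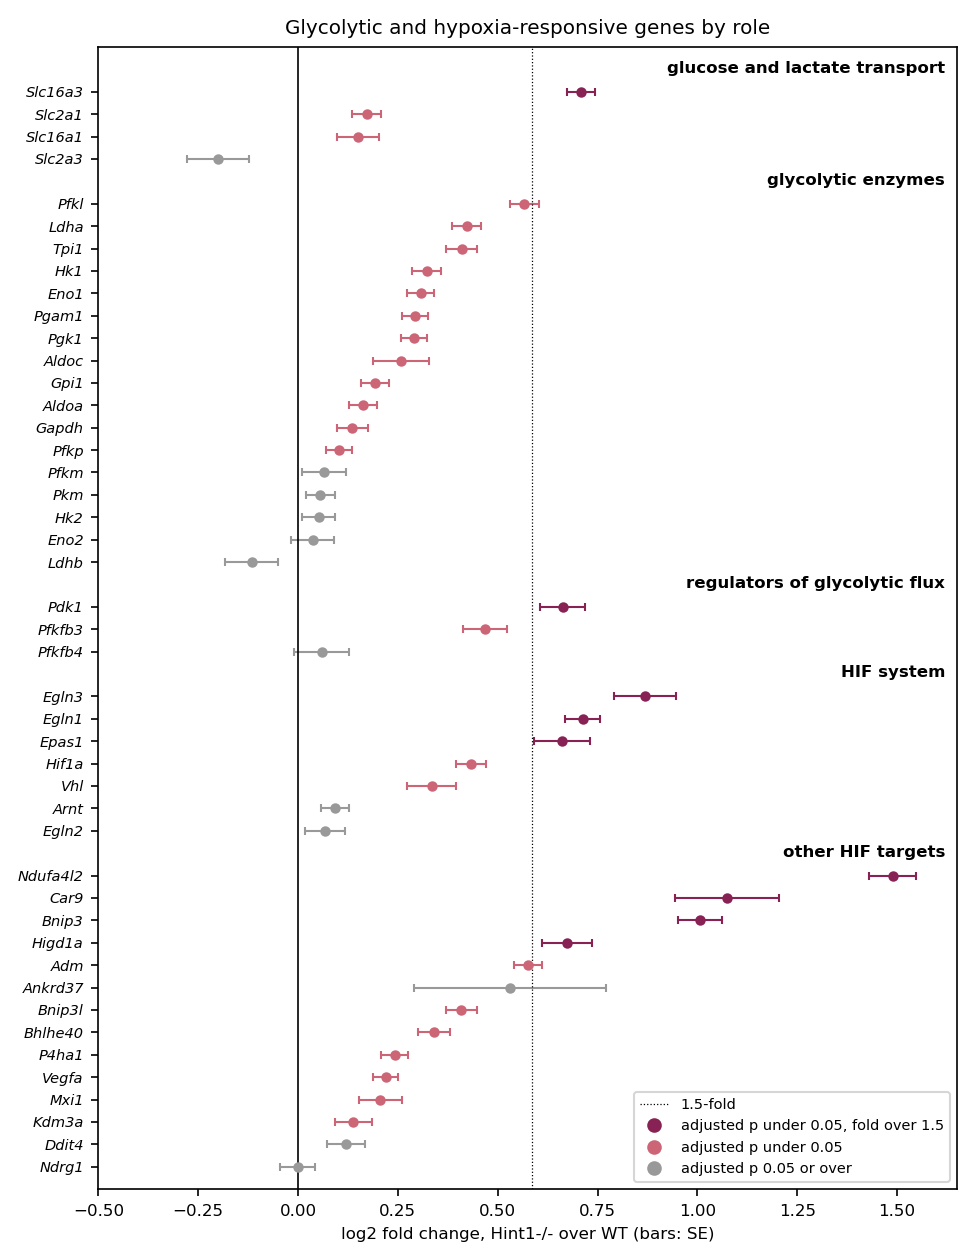
Log2 fold change of Hint1-/- over WT MASMCs for the 45 genes, grouped by role, with horizontal bars for the SE of the fit and a dotted line at a fold change of 1.5. Ndufa4l2, Car9, and Bnip3 lie farthest to the right, and Slc2a3 and Ldhb farthest to the left.

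The 9 genes past both limits were the HIF targets Ndufa4l2, Car9, Bnip3, and Higd1a, the HIF system genes Egln3, Egln1, and Epas1, the lactate exporter Slc16a3, and the kinase Pdk1. None of the 17 glycolytic enzymes passed the fold limit. Below, counts per sample are estimated counts in the order of replicates 1, 2, 3, and 4, and each log2 fold change is Hint1-/- over WT from the fit, with its SE.

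Ndufa4l2 encodes a mitochondrial protein related to NDUFA4, a subunit of cytochrome c oxidase, and is a known HIF target that lowers respiration. It lies at chr10:127514967-127517154 on the plus strand of the mm10 build. Ndufa4l2 had counts of 405, 445, 448, and 480 in WT and 1202, 1322, 1121, and 1308 in Hint1-/- samples. The lowest Hint1-/- sample was thus above the highest WT sample by a wide gap. Its level was 21.3 ± 1.46 CPM (SD, n = 4) in WT and 59.7 ± 4.66 CPM (SD, n = 4) in Hint1-/- MASMCs, a log2 fold change of 1.49 (SE 0.059). The paralog Ndufa4, which is not a listed gene, had counts of 1814, 1830, 1893, and 1884 in WT and 1817, 1750, 1704, and 1608 in Hint1-/- samples. The genotypes overlapped for Ndufa4, and its log2 fold change of -0.10 did not pass the test (edgeR adjusted p = 0.082). Per kilobase of exon, Ndufa4l2 made up 23.2 ± 0.980% (SD, n = 4) of the level of the pair in WT and 47.6 ± 2.60% (SD, n = 4) in Hint1-/- MASMCs. Exons of Ndufa4l2 overlap those of Shmt2 on the opposite strand, and without a stated strand setting, reads of the pair cannot be told apart there. Shmt2 had counts of 5775, 5740, 5994, and 5821 in WT and 5756, 5590, 6038, and 5725 in Hint1-/- samples, so its log2 fold change was -0.0027.

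Car9, a carbonic anhydrase at the cell surface that exports acid equivalents and is used as a marker of HIF activity, had counts of 40, 47, 46, and 53 in WT and 97, 108, 86, and 98 in Hint1-/- samples. These are the fewest counts among the 9 genes, and the genotypes still did not overlap. The log2 fold change was 1.07 (SE 0.131). Bnip3, whose product promotes removal of mitochondria by autophagy, had counts of 1509, 1601, 1605, and 1776 in WT and 3165, 3507, 2900, and 3377 in Hint1-/- samples. It had a log2 fold change of 1.01 (SE 0.055), and every Hint1-/- sample was above every WT sample. The paralog Bnip3l, with the same role, had counts of 1609, 1553, 1633, and 1616 in WT and 2129, 2183, 1963, and 2171 in Hint1-/- samples. It was also higher without overlap, but by a log2 fold change of 0.41 (SE 0.039). Higd1a, a small mitochondrial protein tied to respiratory chain assembly, had counts of 678, 659, 766, and 759 in WT and 1196, 1220, 987, and 1129 in Hint1-/- samples. Its genotypes did not overlap, and the log2 fold change was 0.67 (SE 0.063).

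**Figure D2:**
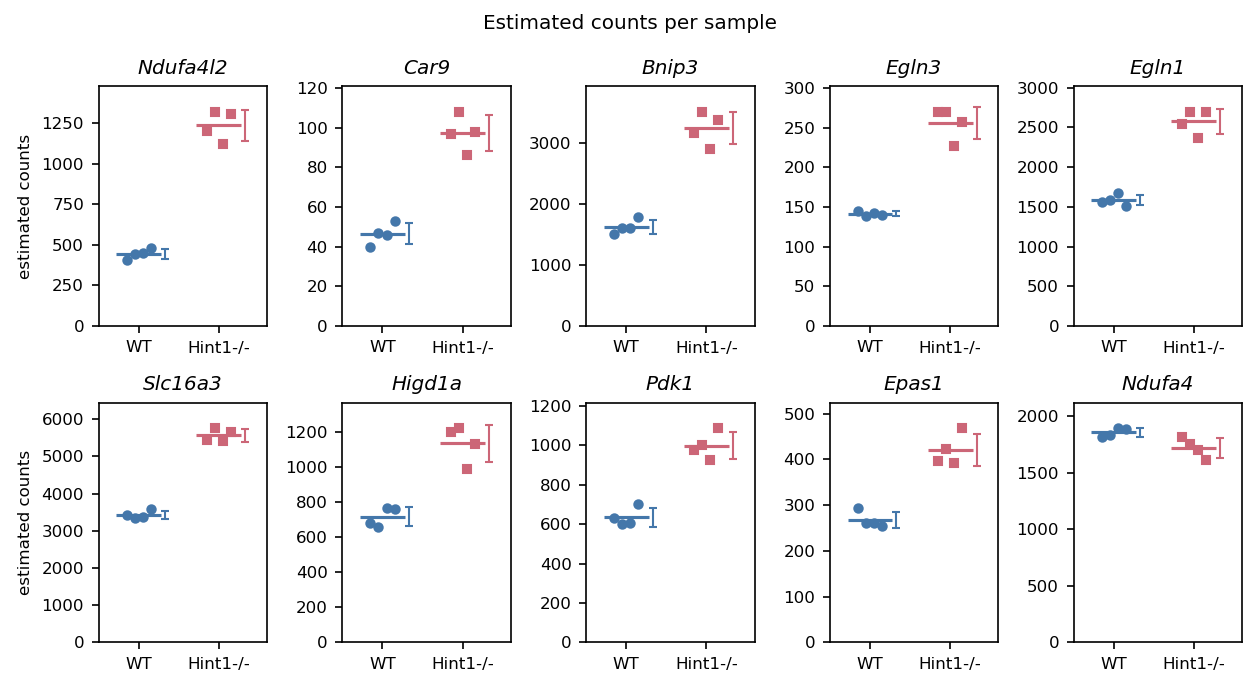
Estimated counts in each sample for the 9 genes past both limits and for Ndufa4, with circles for WT, squares for Hint1-/-, a horizontal line at each mean, and a bar for the SD (n = 4 each); every axis starts at 0. In the 9 genes all 4 Hint1-/- samples lie above all 4 WT samples, with Hint1-/- replicate 3 lowest of its group in each, and in Ndufa4 the genotypes overlap.

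Hint1-/- replicate 3 was the lowest Hint1-/- sample, by CPM, in 9 of these 9 genes. It was also the lowest in 18 of the 33 listed genes called higher (54.5%), in 75 of the 182 genes called higher past the fold limit among all genes (41.2%), in 608 of the 1522 called higher at any fold (39.9%), and in 3566 of all 13535 genes (26.3%). The position of this sample was thus shared by many higher genes outside the list. The pattern was noticed after the values were seen and is not tested. Without this sample, all 9 genes remained past both limits.

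HIF binds DNA at a short core of letters, ACGTG or GCGTG. The promoters of 39 of the 45 genes were held in RefSeq windows on GRCm38.p6, each reaching from 250 bases before to 50 bases after a transcription start. Either core, on either strand, was present in 35 of the 39 genes (89.7%), and in 66.2% of the 10767 tested genes with such a window. Over all 27025 genes with a window, tested or not, the share was 46.7%, so it varies with the genes compared. The list was chosen in part for HIF targets, so these shares describe it and are not a test of it. ACGTG alone was present in 26 of the 39 (66.7%) and in 28.7% of all tested genes. Listed genes had more windows per gene, and counted by window the share with either core was 77.6% of 58 windows against 60.2% of 13769. Either core was present in 26 of the 29 genes called higher and in 9 of the 10 that were not, and ACGTG in 20 of the 29 and in 6 of the 10. Stretches of the promoters of 7 of the 9 genes above are shown, since these genes had the largest fold changes; Ndufa4l2 and Epas1 had no window. Each runs 5′ to 3′ on the gene's strand, with cores in capitals (CACGT and CACGC are the cores read on the other strand, and CACGTG is a core on both), and bases are counted from the start, the base before it being -1. A match of letters is not a binding site.
Bnip3, chr7:138909507-138909656, minus strand, bases -150 to -1: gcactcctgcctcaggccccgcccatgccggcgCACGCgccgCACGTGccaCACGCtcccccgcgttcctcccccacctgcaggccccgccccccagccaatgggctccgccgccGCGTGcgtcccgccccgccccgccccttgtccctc
Slc16a3, chr11:120948917-120949066, plus strand, bases -150 to -1: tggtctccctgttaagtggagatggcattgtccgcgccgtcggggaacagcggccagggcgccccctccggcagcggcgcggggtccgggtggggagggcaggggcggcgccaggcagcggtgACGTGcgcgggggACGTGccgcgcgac
Egln1, chr8:124949315-124949454, minus strand, bases -200 to -61: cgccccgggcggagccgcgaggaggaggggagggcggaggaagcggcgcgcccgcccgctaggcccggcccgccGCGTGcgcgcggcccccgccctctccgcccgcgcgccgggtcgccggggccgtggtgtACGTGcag
Pdk1, chr2:71873074-71873223, plus strand, bases -150 to -1: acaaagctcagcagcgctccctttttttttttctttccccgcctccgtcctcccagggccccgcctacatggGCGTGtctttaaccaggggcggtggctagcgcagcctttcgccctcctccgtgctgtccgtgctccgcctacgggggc
Egln3, chr12:54203975-54204124, minus strand, bases -250 to -101: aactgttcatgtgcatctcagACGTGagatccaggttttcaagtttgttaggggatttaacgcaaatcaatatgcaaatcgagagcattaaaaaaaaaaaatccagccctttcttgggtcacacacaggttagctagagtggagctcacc
Higd1a, chr9:121857847-121857876, minus strand, bases -80 to -51: ggtctagcctGCGTGCGTGgcgttcgcgga
Car9, chr4:43506996-43507025, plus strand, bases -30 to -1: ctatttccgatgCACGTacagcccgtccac
Bnip3 had 5 matches in the stretch, from base -117 to base -35, against 1 or 2 in each of the other 6 stretches. Of the 5, those at bases -108 and -107 are the same CACGTG read on both strands. The stretches are of unequal length and position, so these numbers do not rank the promoters. In Slc16a3 both matches were ACGTG, at bases -27 and -14, and in Higd1a the pair of GCGTG cores overlapped, at bases -70 and -66. Egln3 carried its ACGTG far from the start, at base -229.

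Among the transporters, the lactate exporter Slc16a3 (MCT4) was raised most. Slc16a3 had counts of 3426, 3355, 3360, and 3591 in WT and 5432, 5755, 5409, and 5664 in Hint1-/- samples. The genotypes were far apart, with a log2 fold change of 0.71 (SE 0.035). Slc16a1 (MCT1), which carries lactate in either direction, had counts of 1156, 1179, 1037, and 1213 in WT and 1135, 1255, 1342, and 1318 in Hint1-/- samples. These overlapped, and although the gene was called higher with a log2 fold change of 0.15 (SE 0.053), it lost the call in 10 of 15 alternative settings. Per kilobase of exon, Slc16a3 was the more abundant of this pair, at 71.4 ± 1.11% (SD, n = 4) of their summed level in WT and 78.6 ± 1.27% (SD, n = 4) in Hint1-/- MASMCs.

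Slc2a1 (GLUT1), the glucose carrier of most growing cells, had counts of 5324, 4913, 5312, and 5361 in WT and 5841, 6074, 5741, and 5724 in Hint1-/- samples. Every Hint1-/- sample was above every WT sample, but the log2 fold change was only 0.17 (SE 0.036). Slc2a3 (GLUT3), a carrier of high affinity, had counts of 178, 203, 183, and 196 in WT and 154, 170, 158, and 174 in Hint1-/- samples. It was the only listed gene in which every Hint1-/- sample was below every WT sample, and its log2 fold change of -0.20 (SE 0.078) did not pass the test. Slc2a1 supplied 98.3% of the pair's level per kilobase in WT and 98.7% in Hint1-/- MASMCs.

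The glycolytic enzymes together took a share of all estimated counts that ranged from 1.74% to 1.92% in WT and from 2.04% to 2.11% in Hint1-/- MASMCs, without overlap. The means were 1.82 ± 0.0753% (SD, n = 4) and 2.07 ± 0.0312% (SD, n = 4). Along the pathway the differences were uneven, with the largest at phosphofructokinase, lactate dehydrogenase, and triosephosphate isomerase, and no call at pyruvate kinase.

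At the entry step, Hk1, the hexokinase of most tissues, had counts of 5113, 4963, 5329, and 5337 in WT and 6197, 6448, 6281, and 6802 in Hint1-/- samples. The genotypes did not overlap, and the log2 fold change was 0.32 (SE 0.037). Hk2, the hexokinase most often described as a HIF target, had counts of 1320, 1316, 1256, and 1328 in WT and 1265, 1415, 1297, and 1393 in Hint1-/- samples. These overlapped, and the log2 fold change of 0.05 did not pass the test. Hk3, a hexokinase of myeloid cells that is not a listed gene, had counts of 2775, 2886, 2852, and 3014 in WT and 2076, 2285, 2214, and 2196 in Hint1-/- samples. It had a log2 fold change of -0.38 (SE 0.037, edgeR adjusted p = 4.4e-07), and it was lower alongside the macrophage markers, whose part in it was not tested. Of the summed hexokinase level per kilobase of exon, Hk1 made up 37.8% in WT and 47.9% in Hint1-/- MASMCs, and Hk3 made up 48.6% and 37.8%. With the length of the longest transcript in place of the union of exons, Hk1 instead led in WT, at 51.7% against 38.2% for Hk3, so the order of Hk1 and Hk3 in WT depends on the length used. Gpi1, the isomerase of the next step, was higher by 0.19 (SE 0.035) on the log2 scale without overlap.

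At the committed step, Pfkl, the liver-type phosphofructokinase, had counts of 3804, 3654, 4042, and 3862 in WT and 5569, 5680, 5500, and 5830 in Hint1-/- samples. This was the largest difference among the enzymes, with a log2 fold change of 0.57 (SE 0.036), just inside the fold limit. Pfkm, the muscle type, had counts of 659, 613, 669, and 612 in WT and 673, 618, 629, and 729 in Hint1-/- samples. Its genotypes overlapped, and the log2 fold change of 0.06 did not pass the test. Pfkp, the platelet type, had counts of 2196, 2297, 2291, and 2354 in WT and 2368, 2473, 2425, and 2470 in Hint1-/- samples. It had a log2 fold change of 0.10 (SE 0.033), without overlap by a narrow margin, and the call was lost in 7 of 15 alternative settings. Pfkl made up 61.4 ± 0.585% (SD, n = 4) of the phosphofructokinase level per kilobase in WT and 69.0 ± 0.536% (SD, n = 4) in Hint1-/- MASMCs.

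In the next steps, Aldoa, the aldolase of muscle and most growing cells, had counts of 38717, 36703, 39198, and 40997 in WT and 42677, 43849, 43732, and 42636 in Hint1-/- samples, a log2 fold change of 0.16. Aldoc, the brain type, had counts of 354, 383, 415, and 434 in WT and 425, 518, 463, and 476 in Hint1-/- samples. It was called higher by 0.26 (SE 0.070) on the log2 scale although Hint1-/- replicate 1 lay below WT replicate 4, and without WT replicate 1 or without Hint1-/- replicate 2 the call was lost. Aldoa made up 98.9% of the level of this pair per kilobase in WT and 98.8% in Hint1-/- MASMCs. Tpi1, triosephosphate isomerase, had 9743 to 11002 counts in WT and 13234 to 14074 in Hint1-/- samples. The genotypes did not overlap, and the log2 fold change was 0.41 (SE 0.039).

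Gapdh, which is commonly used as a reference gene, had counts of 106295, 100551, 109956, and 113208 in WT and 116424, 120411, 118996, and 113104 in Hint1-/- samples. Its counts overlapped, its CPM did not, and it was called higher by 0.14 (SE 0.038) on the log2 scale, a call lost without Hint1-/- replicate 2. Pgk1 and Pgam1, a kinase and a mutase, were each higher by 0.29 on the log2 scale without overlap. Eno1, the common enolase, had counts of 44137, 42282, 44950, and 45642 in WT and 54315, 55158, 54091, and 53690 in Hint1-/- samples. It did not overlap, with a log2 fold change of 0.31 (SE 0.033). Eno2, the neuronal enolase and a known HIF target, had counts of 652, 622, 650, and 698 in WT and 714, 608, 695, and 652 in Hint1-/- samples. These overlapped fully, with a log2 fold change of 0.04. Eno1 made up 94.8% of the enolase level per kilobase, Eno3 included, in WT and 95.9% in Hint1-/- MASMCs.

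At the end of the pathway, Pkm, pyruvate kinase, had 82278 to 91221 counts in WT and 85671 to 89994 in Hint1-/- samples, overlapping, with a log2 fold change of 0.06 that did not pass the test. The gene-level counts do not separate its M1 and M2 splice forms. Ldha, the dehydrogenase chain that favours lactate production, had counts of 25244, 24490, 26861, and 26988 in WT and 33874, 35525, 33647, and 34656 in Hint1-/- samples. It was higher without overlap by 0.42 (SE 0.037) on the log2 scale. Ldhb, the chain that favours the reverse reaction, had counts of 431, 387, 415, and 480 in WT and 395, 414, 383, and 376 in Hint1-/- samples. Its genotypes overlapped and its log2 fold change of -0.12 did not pass the test. Ldha made up 96.6 ± 0.215% (SD, n = 4) of the level of the pair per kilobase in WT and 97.7 ± 0.0766% (SD, n = 4) in Hint1-/- MASMCs.

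**Figure D3:**
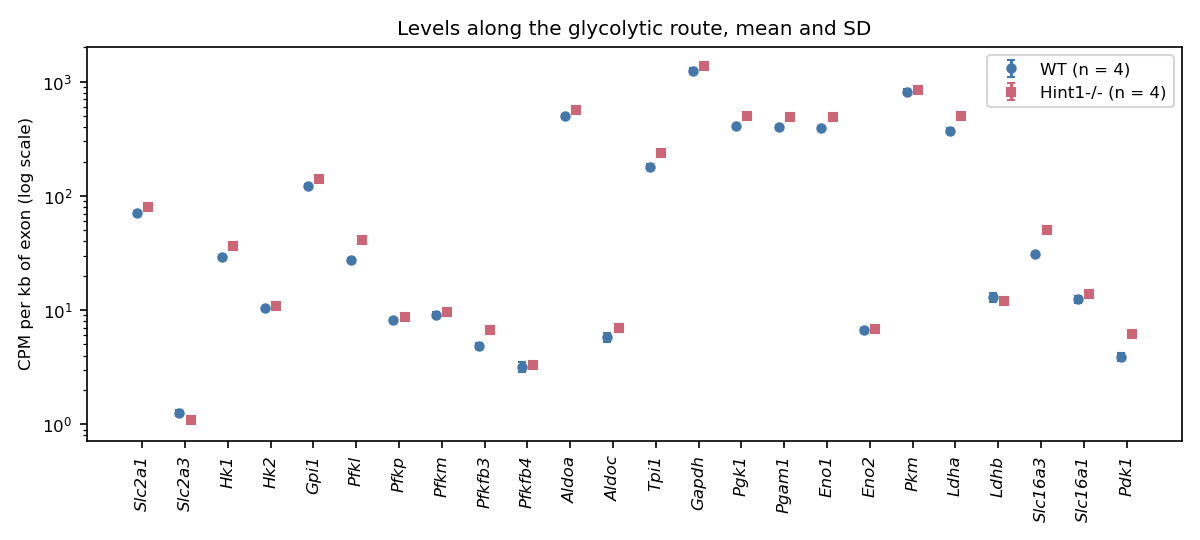
Mean CPM per kilobase of exon, on a log scale, of 24 listed transporters, enzymes, and flux regulators in the order of the route from glucose to lactate, with circles for WT, squares for Hint1-/-, and bars for the SD (n = 4 each, mostly smaller than the symbol). Gapdh and Pkm are the most abundant, and Slc2a3 is the least abundant.

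Per kilobase of exon, the enzyme levels in WT fell in the order Gapdh at 1244 CPM, Pkm at 822, Aldoa at 502, Pgk1 at 407, Pgam1 at 405, Eno1 at 394, Ldha at 374, Tpi1 at 180, and Gpi1 at 123. From Pgk1 to Ldha, each gene overlapped the next in its range over the WT samples, so neighbours in that stretch of the order are not resolved. The hexokinases and phosphofructokinases, which control the flux, were far less abundant in WT, at 37.4 CPM per kilobase or below. This order depends on the length used. Per kilobase of the longest transcript, the WT levels were 1690 CPM for Pkm, 1564 for Gapdh, 1201 for Aldoa, 1044 for Eno1, 682 for Ldha, 501 for Pgk1, and 452 for Pgam1, so Pkm passed Gapdh, and Eno1 and Ldha passed Pgk1 and Pgam1.

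Of the flux regulators, Pdk1, which closes the entry of pyruvate into mitochondria by inhibiting pyruvate dehydrogenase, had counts of 633, 599, 603, and 704 in WT and 974, 1003, 927, and 1086 in Hint1-/- samples. The genotypes did not overlap, with a log2 fold change of 0.66 (SE 0.056). Pfkfb3, which makes the activator of phosphofructokinase, had counts of 729, 753, 742, and 843 in WT and 1016, 1085, 966, and 1142 in Hint1-/- samples. It was higher without overlap by 0.47 (SE 0.055) on the log2 scale. Pfkfb4, an enzyme of the same family, had 285 to 356 counts in WT and 326 to 342 in Hint1-/- samples, overlapping, with a log2 fold change of 0.06.

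In the HIF system, both alpha subunits were higher while the partner Arnt was not called. Hif1a had counts of 7242, 7855, 7240, and 7855 in WT and 9528, 10391, 10173, and 10355 in Hint1-/- samples. The groups were clearly separated, with a log2 fold change of 0.43 (SE 0.038). Epas1, which encodes HIF-2 alpha, had counts of 294, 260, 261, and 255 in WT and 397, 423, 391, and 468 in Hint1-/- samples. It too was separated, with a larger log2 fold change of 0.66 (SE 0.070) at a much lower level. Per kilobase of exon, Hif1a stood at 61.2 CPM and Epas1 at 2.29 CPM in WT, and at 82.7 CPM and 3.62 CPM in Hint1-/- MASMCs. Arnt had counts of 1310, 1377, 1364, and 1401 in WT and 1423, 1442, 1417, and 1485 in Hint1-/- samples. Its samples did not overlap, but its log2 fold change of 0.09 (SE 0.035) did not pass the test.

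Among the genes that hold the alpha subunits down, Egln3 had counts of 145, 138, 142, and 140 in WT and 270, 270, 227, and 257 in Hint1-/- samples. The log2 fold change was 0.87 (SE 0.078), without overlap. Egln1, the main oxygen sensor of the family, had counts of 1564, 1581, 1673, and 1515 in WT and 2544, 2698, 2369, and 2689 in Hint1-/- samples. It was higher without overlap by 0.71 (SE 0.044) on the log2 scale. Egln2 had counts of 920, 826, 910, and 869 in WT and 873, 859, 1002, and 932 in Hint1-/- samples. Its genotypes overlapped, with a log2 fold change of 0.07. Egln1 and Egln3 are known to be induced by HIF, and Egln2 is not. Egln1 made up 54.5 ± 1.26% (SD, n = 4) of the hydroxylase level per kilobase in WT and 62.8 ± 2.13% (SD, n = 4) in Hint1-/- MASMCs, while Egln2 made up 38.9 ± 1.17% (SD, n = 4) and 28.8 ± 2.59% (SD, n = 4). With the length of the longest transcript, Egln1 made up 48.3% and Egln2 45.9% in WT, with overlapping ranges. The lead of Egln1 in WT thus depends on the length used. Vhl had counts of 507, 478, 452, and 441 in WT and 567, 639, 605, and 539 in Hint1-/- samples, a log2 fold change of 0.33 (SE 0.061) without overlap.

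Of the other HIF targets, Adm, a secreted vasodilator peptide, had counts of 6120, 5927, 6060, and 5542 in WT and 8853, 8462, 8657, and 9014 in Hint1-/- samples. It lay just inside the fold limit, with a log2 fold change of 0.58 (SE 0.036) and no overlap. Bhlhe40, a transcriptional repressor, was higher by 0.34 (SE 0.040) on the log2 scale, P4ha1, a collagen prolyl hydroxylase, by 0.24, and Vegfa, an angiogenic growth factor, by 0.22. Mxi1, an antagonist of MYC, was higher by 0.21, and the histone demethylase gene Kdm3a by 0.14 (SE 0.046), a call lost in 7 of 15 alternative settings. The genotypes did not overlap in any of these 5 genes.

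Ndrg1, Ddit4, and Ankrd37 were the genes in the group of other HIF targets that were not called. Hk2 and Eno2, named above as HIF targets among the enzymes, were not called either. Ndrg1, a stress-response gene, had counts of 1776, 1902, 1744, and 1842 in WT and 1775, 1949, 1662, and 1817 in Hint1-/- samples, overlapping fully. Its log2 fold change was -0.00093 (SE 0.045), and its sign depended on which sample was left out. Ddit4, an inhibitor of mTOR signalling, had 514 to 562 counts in WT and 572 to 599 in Hint1-/- samples, without overlap, and its log2 fold change of 0.12 did not pass the test. Ankrd37 had counts of 10, 19, 23, and 19 in WT and 27, 23, 22, and 30 in Hint1-/- samples. At so few counts, its log2 fold change of 0.53 had an SE of 0.241, and a difference was not detectable at this depth.

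The value of a gene can hold reads shared with others. In 9 of the 45 genes (Slc16a3, Pfkl, Pfkp, Aldoa, Gapdh, Eno1, Pfkfb3, Pfkfb4, and Higd1a) no sample had a whole-number count, as arises where reads were divided among transcripts or similar sequences, while in 26 genes all 8 values were whole. Exons of 19 of the 45 genes overlap those of another annotated gene. Besides Ndufa4l2, this holds for Bnip3, Car9, and Higd1a among the genes past both limits, each with an antisense transcript. The antisense gene of Higd1a, Gm47112, had 29 to 44 counts in WT and 38 to 68 in Hint1-/- samples, far fewer than Higd1a.

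Genes of the same pathways that were not on the list were examined by further lists. These lists too were drawn up with earlier results of these samples known. The numbers of calls and the p-values therefore describe these lists and are not a test of them. Of 32 other HIF targets tested, 25 were higher and 2 lower in Hint1-/- MASMCs (edgeR, adjusted p under 0.05). Among all genes tested, 11.2% were higher and 10.2% lower. Past the fold limit, 4 of the 32 were higher, against 1.34% of all genes. The median log2 fold change of the 32 was 0.27. Cox4i2, the cytochrome c oxidase isoform that HIF induces, had counts of 73, 42, 66, and 68 in WT and 111, 126, 116, and 110 in Hint1-/- samples. It had a log2 fold change of 0.90 (SE 0.138, edgeR adjusted p = 9.2e-05) without overlap. Fam162a, a mitochondrial protein, had counts of 2544, 2557, 2692, and 2780 in WT and 4023, 4467, 4173, and 4298 in Hint1-/- samples. The log2 fold change was 0.69 (SE 0.039, edgeR adjusted p = 2.9e-10). Gys1, muscle glycogen synthase, had counts of 2170, 2181, 2246, and 2140 in WT and 3332, 3414, 3246, and 3481 in Hint1-/- samples. It was separated by a log2 fold change of 0.64 (SE 0.034, edgeR adjusted p = 1e-10). P4ha2, a collagen prolyl hydroxylase, had counts of 2111, 1867, 1999, and 1921 in WT and 3210, 2988, 2628, and 3150 in Hint1-/- samples. It had a log2 fold change of 0.61 (SE 0.054, edgeR adjusted p = 1.3e-07).

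The 2 HIF targets that were lower were Hmox1 and Car12. Hmox1, heme oxygenase, which is also induced by heme and oxidants and is abundant in macrophages, had counts of 7520, 7482, 7742, and 8758 in WT and 6308, 6615, 5710, and 6015 in Hint1-/- samples. It did not overlap, with a log2 fold change of -0.34 (SE 0.050, edgeR adjusted p = 6e-05). Car12, a carbonic anhydrase like Car9, had a log2 fold change of -0.28 (SE 0.070, edgeR adjusted p = 0.0083). The carbonic anhydrases Car9 and Car12 therefore went in opposite directions.

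The lists of genes other than HIF targets are likewise read beside the shares of all genes tested, 11.2% higher and 10.2% lower. Among 12 other glycolytic isoforms and regulators tested, 0 were higher and 1, Hk3, was lower, with a median log2 fold change of 0.0049. Several of these genes had few counts, such as Pgam2 with 7 to 22 and Slc2a4 with 8 to 21. Their log2 fold changes had SEs of 0.321 and 0.285, so a difference there could go undetected. In that list 1 gene was higher at an unadjusted p under 0.05 in edgeR, and DESeq2 and limma-voom called 0. Among 10 other HIF regulators, 0 were higher and 0 were lower (edgeR, with 2 and 2 at an unadjusted p under 0.05, and 0 and 0 by DESeq2 and by limma-voom), with a median of 0.02. Of 14 genes for the entry of pyruvate into mitochondria, 2 were higher (14.3%, near the share of all genes), the phosphatase Pdp2 by 0.24 (edgeR adjusted p = 0.01) and the kinase Pdk3 by 0.15 (edgeR adjusted p = 0.0073) on the log2 scale, and 0 were lower (1 at an unadjusted p under 0.05, and 0 by DESeq2 and limma-voom). Pdp2 and Pdk3 act in opposite directions on pyruvate dehydrogenase, and both differences were smaller than that of Pdk1.

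In the branches that leave glycolysis, 4 of 12 genes were lower and 1 was higher, against 10.2% and 11.2% of all genes, and DESeq2 and limma-voom each called 3 lower. The lower genes were all of the pentose phosphate pathway, which supplies NADPH and ribose. G6pdx, its entry enzyme, had a log2 fold change of -0.19 (edgeR adjusted p = 0.0011), Taldo1 of -0.19 (edgeR adjusted p = 0.0048), Pgd of -0.14 (edgeR adjusted p = 0.011), and Pgls of -0.12 (edgeR adjusted p = 0.047), a call lost with DESeq2 and with limma-voom. Gfpt2, which opens the hexosamine pathway, was higher by 0.23 (edgeR adjusted p = 0.00038). Of 13 genes made up of cytochrome c oxidase subunits and Ndufa4, 0 were higher (0 also at an unadjusted p under 0.05, and by DESeq2 and limma-voom). This list leaves out the isoform Cox4i2, which was higher and is counted above among the HIF targets. In the list 1 gene, Cox6b1, was lower by a log2 fold change of -0.13 (edgeR adjusted p = 0.022). That call was lost without WT replicate 1 or 4 or Hint1-/- replicate 2 or 4. At an unadjusted p under 0.05 in edgeR, 5 of the 13 were lower.

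**Figure D4:**
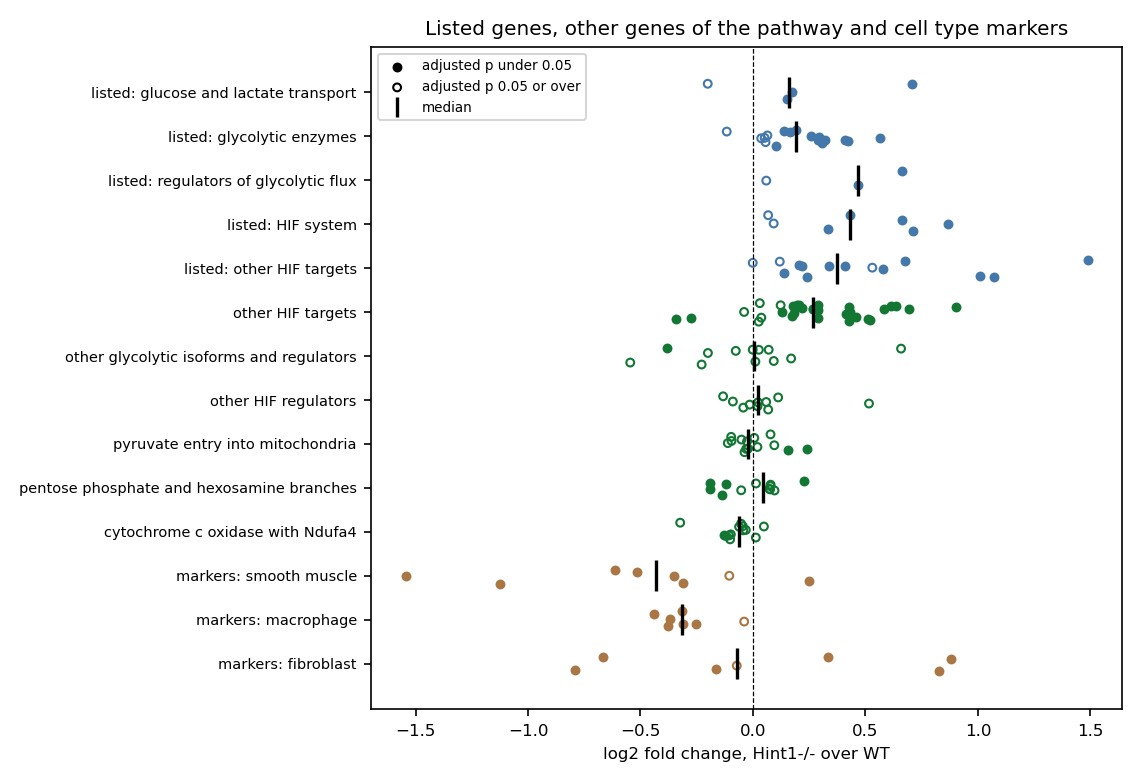
Log2 fold change of Hint1-/- over WT for each tested gene of the listed groups (blue), of other pathway lists (green), and of 3 cell type marker lists (brown), with filled points at an adjusted p under 0.05 and black bars at medians. The listed groups and the other HIF targets lie mostly to the right of 0, the remaining pathway lists around 0, and the smooth muscle and macrophage markers mostly to the left.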

How the data were processed

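RNA-Seq libraries of 8 MASMC samples (4 WT and 4 Hint1-/-, all with PDGF-BB) were read as 50-base BGISEQ-500 reads. The authors mapped them with HISAT2 to mm10 in the methods, whereas Bowtie2, RSEM 1.3.1, and DESeq2 1.4.5 stand in the submitters' processing notes. The authors deposited expected counts per gene symbol, estimated without normalization, with 67.3% to 67.8% whole numbers per sample. Depth was 20778077 to 20888041 per sample. A read that fits several transcripts is divided, so counts of similar genes depend on each other. No molecular identifiers are described.

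Values were rounded, filtered with filterByExpr (13535 of 18533 symbols kept), normalized by TMM (factors 0.993 to 1.01), and compared by genotype alone, over all genes, with glmQLFit and glmQLFTest, two-sided, with Benjamini-Hochberg adjustment (edgeR 4.0.16 in R 4.3.3; the alternatives used DESeq2 1.42.0 and limma 3.58.1). Calls needed an adjusted p under 0.05, with a fold change over 1.5 as a second limit, as in the study. The SE is the log2 fold change divided by the root of its F statistic. The spread between replicates, which edgeR terms the biological coefficient of variation, was 3.79%. The SEs and p-values rest on this spread. Since the replicates may not come from separate mice or cultures, it may not measure differences between mice. Levels between genes were CPM per kilobase of the union of GENCODE M21 exons. Overlap between genotypes was judged on CPM unless counts are named. In simulated data with 200 of 13535 genes changed, edgeR recovered 99% of genes changed 1.5-fold and 100% of those changed 2-fold, with 18 false calls, and a draw with no change gave 0 calls. The changed genes were drawn only from genes with higher counts, and the dispersions were those fitted to these samples. The recovery shares therefore do not cover genes with few counts, such as Car9 and Ankrd37. They also do not cover changes under 1.5-fold, which most of the listed genes called higher had.

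The genes, the other pathway lists, and the marker lists were chosen with earlier results of these data known. The genes given with counts per sample were those past both limits, the members of isoform families, the HIF subunits and prolyl hydroxylases, and the 5 further called genes with the largest change; other values given were chosen after they were seen. In the other pathway lists, named genes were those past both limits and up to 3 in each direction with the largest change, and Pgls was named after its value was seen. Alternatives were DESeq2 size factors, upper-quartile normalization, no filter, at least 10 counts in every sample, a replicate block, DESeq2, limma-voom, each sample left out, and the length of the longest transcript.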

Additional observations from a re-analysis of the deposited data

Results flagged for a closer look

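In 4 of the 90 sets of 4 samples examined (the 45 genes in each genotype), 1 sample stood apart from the other 3 by Dixon's criterion, where chance gives about 1 in 20, or 4.5 of 90. Slc2a1 was low in WT replicate 2, with a gap of 0.879 of the range. Pkm was low in Hint1-/- replicate 1, with a gap of 0.881 of the range. Epas1 was high in WT replicate 1, with a gap of 0.852 of the range, and Kdm3a was low in the same sample, with a gap of 0.840 of the range. Without WT replicate 1, Epas1 stayed past both limits and Kdm3a was no longer called. Slc2a1 kept its call without WT replicate 2.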

How the results depend on the processing

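Of the 33 listed genes called higher, 28 kept the call in all 15 alternatives. The exceptions were Slc16a1 (lost in 10), Pfkp and Kdm3a (7 each), Aldoc (2), and Gapdh (1). All 9 genes past the fold limit stayed past it in all 15. The count of listed genes called higher was 32 with DESeq2 size factors, 30 with upper-quartile normalization, 30 with DESeq2, 32 with limma-voom, 33 without a filter, with the stricter filter, and with the replicate block, and 28 to 33 with a sample left out. The count past the fold limit was 9 in these, or 9 to 11 with a sample left out: Adm passed without WT replicate 1 or 3 or Hint1-/- replicate 2, and Pfkl without WT replicate 3. The log2 fold change of Ndrg1 ran from -0.042 to 0.037 with a sample left out, and was positive in 4 of these 8 fits (0.02, 0.0068, 0.006, and 0.037).

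In some lists with few calls, the number of calls changed with the setting. Other glycolytic isoforms called higher were 1 without a filter and 0 to 1 with a sample left out, and those called lower were 1 to 2. Other HIF regulators called higher were 1 with the replicate block and 0 to 1 with a sample left out. Cytochrome c oxidase genes called lower were 2 with upper-quartile normalization, 2 with the stricter filter, 3 with the replicate block, and 0 to 4 with a sample left out. The cause was not tested. The deviations of the 4 same-numbered pairs of WT and Hint1-/- samples correlated at -0.045, 0.081, 0.0088, and 0.023. WT samples matched their own number best for replicates 2 and 4 only. The labels do not say whether same-numbered samples shared a batch, and these values cannot settle it. Ankrd37, with 10 to 30 counts, was limited by depth.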
